A study of Mus musculus with 12 samples.

Results

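Rosiglitazone (Rosi) activates PPARγ, the nuclear receptor that drives fat cell formation and lipid storage. The comparison described here is between the inguinal white adipose tissue (iWAT) of obese mice given Rosi and of obese mice given vehicle (Veh), by single-cell RNA sequencing of the stromal vascular fraction (SVF). It took the 4 libraries labelled iWAT ob/ob-Rosi (n = 2) and iWAT ob/ob-Veh (n = 2) out of 12 libraries in all. Barcodes with 700 to 22000 UMIs, 200 to 6000 genes and under 25% mitochondrial UMIs were kept as cells, which left 41582 cells of the 126095 kept in the whole series. UMIs (unique molecular identifiers) collapse PCR copies, so that each captured RNA is counted a single time.

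All 4 libraries came from male Lepob/Lepob mice, which lack functional leptin and become obese, at an age of 12 weeks. Rosi mice were given 30 mg/kg rosiglitazone by gavage in the morning and evening over 3 days. Veh mice received methylcellulose on the same days. Each library holds the SVF of 1 mouse, that is, the cells that sank after collagenase digestion once the floating fat cells had been taken off, so mature adipocytes and lipid-laden cells that float are under-represented. The comparison shows obese mice with and without 3 days of drug and holds no lean mouse. With 2 mice per group, the exact two-sided permutation test cannot give a p below 0.33 for a single value, so gene calls rest on a fit across all genes (edgeR's quasi-likelihood test, with calls at 1.1-fold or more and a Benjamini-Hochberg adjusted p not above 0.05).

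The SVF of iWAT holds the cells from which new adipocytes arise together with vascular and immune cells. Adipocyte progenitor cells (APCs) run from Pi16 and Dpp4 positive progenitors to preadipocytes that are closer to fat storage. Perivascular macrophages (PVMs) line vessels, lipid-associated macrophages (LAMs) take up lipid and carry Trem2, and non-perivascular-like macrophages (NPVMs) include cells recently recruited from blood. Ribosomal protein (RP) genes encode the protein part of the ribosome, are short and abundant, and are regulated together.

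The libraries differed in more than the drug. The Rosi libraries held 9674 and 17500 cells with a median of 3714 and 3160.5 UMIs, and the Veh libraries held 7205 and 7203 cells with 1998 and 1919 UMIs. The sums of UMIs ranged from 19593940 to 66315901. Between 17 and 40 barcodes were shared by any pair of these libraries. Cells were grouped by Leiden clustering over all iWAT libraries and clusters were named X-like from marker genes. In the APC and PVM classes the clusters followed the treatment, and in part in EC-like and NPVM-like cells. A change within these classes and a change of their makeup cannot be told apart. One APC cluster held 2823 and 2625 Veh cells but 112 and 19 Rosi cells, while another held 803 and 3442 Rosi cells but 33 and 59 Veh cells. One PVM-like cluster held 2777 and 2044 Veh cells but 81 and 22 Rosi cells, with most Rosi PVM-like cells in the other 3. The Rosi libraries differed from each other there, with 1124 and 51 cells in one cluster, 299 and 2354 in another and 621 and 2408 in the last. Among APC-like cells clustered again, one progenitor-like cluster held 736 and 37 Rosi cells and another held 44 and 1732. The summed level of the progenitor markers in preadipocyte-like cells was 2551 and 2832 CPM in Rosi and 6682 and 5787 in Veh, and these markers were also higher in Veh in EC-like and PVM-like cells (505 and 637 against 1831 and 1673 CPM in EC-like). Here and below CPM is a count per 1e6 UMIs outside the RP genes. For single genes, but not for sums of markers, this total is also scaled by the normalization factor (TMM) of the library. In DC-like cells these factors were 0.907 and 0.913 in Rosi and 1.09 and 1.11 in Veh.

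Several signs of RNA content moved with the treatment. Mitochondrial genes took 4.64% and 2.37% of all UMIs in Rosi and 6.02% and 6.82% in Veh, and the nuclear RNA Malat1 took 1.67% and 1.46% against 2.27% and 3.23%. Both groups stood apart without overlap. The change of a gene also went with the length of its transcripts. In progenitor-like cells the median log2 fold change was 0.39 over 327 genes with transcripts of up to 500 bases and −0.28 over 2065 genes above 3000 bases. The part of depth, RNA quality and transcript length in the results below was not tested. Lep RNA was found in all 4 libraries (167 and 197 UMIs in Rosi, 4 and 8 in Veh), and it cannot check the genotype, since the ob mutation leaves a transcript.

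**Figure D1:**
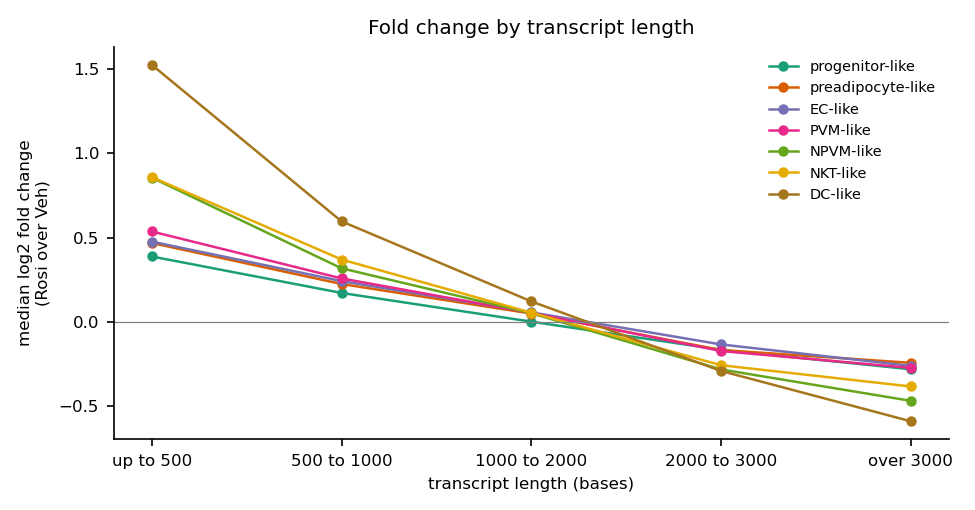
Median log2 fold change (Rosi over Veh, y axis) of the genes in 5 ranges of transcript length (x axis, bases), 1 line per cell class. In progenitor-like cells the median goes from 0.39 at up to 500 bases to −0.28 above 3000 bases, and every class shown falls from left to right.

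LAM-like cells made up 11.84% and 6.09% of the cells placed in a class in Rosi and 0.528% and 0.222% in Veh. The difference was 4.57 ± 0.77 (SE) on the log2 scale with an adjusted p of 6.57e-05 (edgeR over 11 classes). In counts these were 1139 and 1062 cells against 38 and 16. The genes that define LAM-like cells were also higher in other classes of the Rosi libraries (7 of 12 LAM markers in PVM-like cells, where 12.4% of all genes were higher, and 10 of 12 in NPVM-like cells, where 18.7% were), so the number of such cells and the level of their genes cannot be told apart. Both the floating of lipid-laden cells and the limits on UMIs can set these shares, and their part was not tested.

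Endothelial (EC-like) cells made up 21.98% and 12.59% in Rosi and 1.54% and 8.88% in Veh, with a log2 difference of 1.73 ± 0.67 (adjusted p = 0.048). The Veh libraries were far apart here, with 111 and 639 cells, and the difference was 0.96 without Veh replicate 1. EC-like, proliferating LAM-like (PLAM-like, log2 difference 1.93) and neutrophil-like cells (2.24) passed the test, but each lost the call when either Rosi library was left out. Progenitor-like cells lay in the other direction without passing the test. They were 9.29% and 18.67% of the Rosi cells and 38.2% and 35.2% of the Veh cells (log2 difference −1.39, adjusted p = 0.11). Preadipocyte-like cells were 18.17% and 19.79% against 7.79% and 15.41% (adjusted p = 0.46), and PVM-like cells 22.1% and 27.73% against 39.04% and 29.55% (adjusted p = 0.60).

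**Figure D2:**
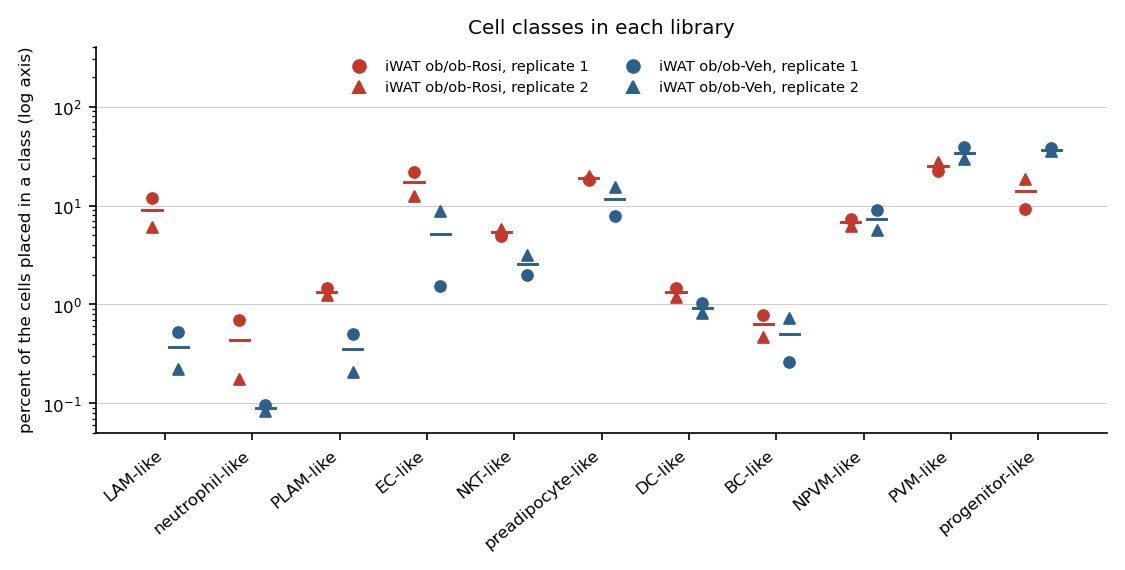
Percent of the cells placed in a class (y axis, log scale) for 11 cell classes (x axis), 1 point per library and a bar at the mean of each group. LAM-like cells show the widest gap, with 11.84% and 6.09% in Rosi against 0.528% and 0.222% in Veh, and NPVM-like and BC-like (B cell) points overlap.

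RP genes took a larger share of UMIs in Rosi in every class. Over the whole library the share was 14.3% and 18.55% in Rosi and 8.11% and 8.61% in Veh, a difference of 8.07 percentage points. In progenitor-like cells it was 17.25% and 22.61% against 10.23% and 11.09%. In preadipocyte-like cells the values were 12.5% and 15.01% against 6.94% and 7.54%. Both Rosi libraries lay above both Veh libraries in all of these, and the exact permutation p was 0.33 for each, the smallest possible.

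The ratio of the mean shares was 1.87 in progenitor-like and 1.90 in preadipocyte-like cells and higher in these immune classes. DC-like (dendritic) cells gave 28.77% and 32.29% of their UMIs to RP genes in Rosi and 3.84% and 5.59% in Veh, a 6.47-fold ratio of means. NKT-like cells, a class of T, natural killer and innate lymphoid cells, gave 23.32% and 31.48% against 4.42% and 7.71%. In NPVM-like cells the share was 20% and 23.85% against 5.39% and 6.12%, and in PVM-like cells 11.93% and 16.65% against 4.16% and 5.93%. Mitochondrial UMIs were also further apart in DC-like cells than in the other classes, at 3.68% and 1.95% of the total in Rosi against 13.8% and 13.8% in Veh.

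Gene by gene, 58 of 85 RP genes tested were higher and 1 was lower in progenitor-like cells, where 8.66% of all 12538 genes tested were higher and 5.39% lower. Their median log2 fold change was 1.06 beside −0.02 over all genes. In preadipocyte-like cells 60 of 85 were higher and none lower (median 1.08), where 8.61% of all genes were higher. Rpl15 and Rpl29 encode parts of the large subunit.

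Rpl15 stood at 2040 and 3004 CPM in progenitor-like cells of Rosi and at 829 and 788 CPM in Veh (log2 fold change 1.64 ± 0.29, adjusted p = 0.0045). Rpl29 stood at 967 and 1737 against 413 and 387 CPM. In preadipocyte-like cells Rpl15 was 1406 and 1781 against 462 and 430 CPM (1.84 ± 0.26, adjusted p = 0.0036). All 4 Rosi values lay above all Veh values of their class. The gene that was lower, Rpl39l, is a copy of Rpl39 best known from the testis, at 6.31 and 6.46 CPM in Rosi against 25.6 and 15.9 CPM. RP genes have many near-identical copies in the genome, so counts of single members are less certain than their sum.

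The number of RP genes called depended on the Veh libraries in the APC classes. With all 6 iWAT libraries in the fit, and so the spread of the lean pair, it was 1 in progenitor-like and 2 in preadipocyte-like cells. Without Veh replicate 1 there were 5 in progenitor-like and 2 in preadipocyte-like cells, and without Veh replicate 2 there were 6 and 20. Their median log2 fold change was between 0.83 and 1.31 in progenitor-like cells and between 0.98 and 1.16 in preadipocyte-like cells over the 4 fits that left out a library.

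In the other classes 45 of 85 RP genes were higher in EC-like cells (4.37% of all genes were higher there), 76 of 85 in PVM-like (12.4%), 82 of 85 in NPVM-like (18.7%), 75 of 84 in NKT-like (7.86%) and 83 of 84 in DC-like cells (19.7%). Leaving out a library left 82 to 83 called in NPVM-like and in DC-like cells. The number was lower without Veh replicate 1, at 11 in EC-like and 27 in PVM-like cells. In NKT-like cells it was 0 without Rosi replicate 2 or Veh replicate 1 and 18 without Veh replicate 2. In the first 2 of these fits edgeR called no gene of any kind in NKT-like cells, with 867 and 1499 genes at an unadjusted p under 0.05.

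**Figure D3:**
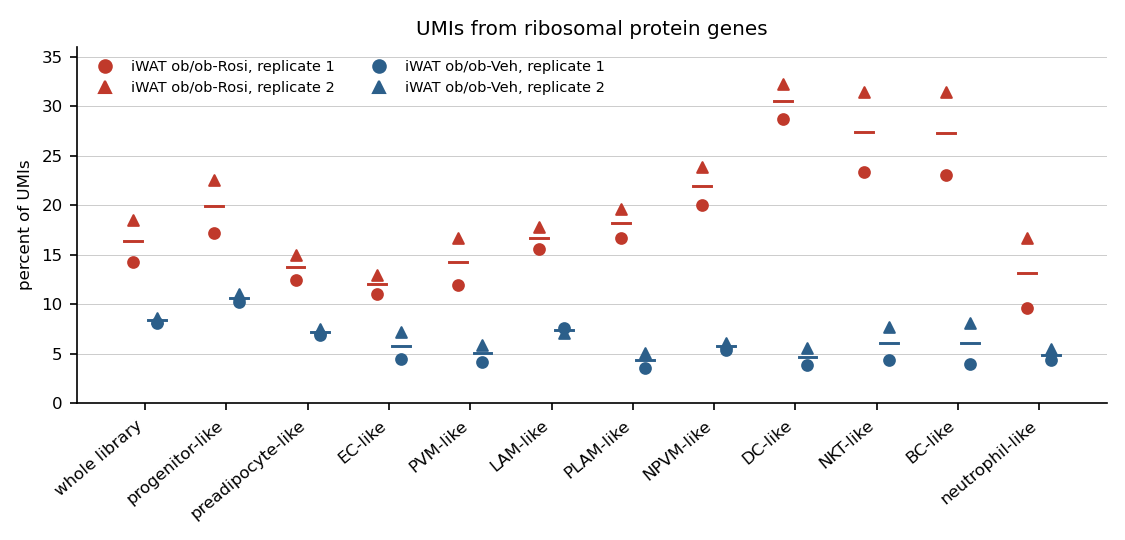
Percent of UMIs from RP genes (y axis) in the whole library and in 11 cell classes (x axis), 1 point per library and a bar at the mean of each group. Rosi points lie above Veh points in every class, from 11.09% and 12.95% against 4.47% and 7.20% in EC-like to 28.77% and 32.29% against 3.84% and 5.59% in DC-like cells.

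Some genes that serve translation around the ribosome were higher as well. Of 37 initiation factor genes, 11 were higher in progenitor-like and 10 in preadipocyte-like cells, with none lower, beside 8.66% and 8.61% of all genes. In progenitor-like cells the count was 17 without Rosi replicate 1, 6 without Rosi replicate 2, 4 without Veh replicate 1 and 1 without Veh replicate 2. In preadipocyte-like cells it was 17 without Rosi replicate 1, 1 without Veh replicate 1 and 2 without Veh replicate 2, and in both classes 0 with all 6 libraries. Eif3k, a part of the eIF3 complex, was at 244 and 417 CPM in progenitor-like cells of Rosi and 141 and 127 CPM in Veh (log2 fold change 1.30 ± 0.29). Eif4ebp1, which holds back cap-dependent initiation when it is not phosphorylated, was at 110 and 181 against 54.8 and 44.6 CPM (1.55 ± 0.28, adjusted p = 0.0054). Eif6, which keeps the large subunit apart until it is mature, was at 66.4 and 102 against 41.7 and 48.0 CPM.

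Other initiation factors did not pass the test in either APC class. Eif4e, which binds the cap, was at 187 and 260 against 269 and 306 CPM in progenitor-like cells (adjusted p = 0.37), and Eif4b and Eif2a did not pass either. Of 12 elongation factor genes 3 were higher in each APC class and none lower, beside 8.66% and 8.61% of all genes. The counts were 0 in both classes without either Veh library, 7 and 6 without Rosi replicate 1, and 2 and 1 without Rosi replicate 2. Eef1b2, of the complex that reloads elongation factor 1, was at 1529 and 2079 against 803 and 762 CPM in progenitor-like cells.

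Nuclear genes of the respiratory chain were higher too. In progenitor-like cells 50 of 73 were higher and none lower (median log2 fold change 1.03), and in preadipocyte-like cells 53 of 73 (1.08), beside 8.66% and 8.61% of all genes. The Veh libraries set these counts, which were 16 and 3 without Veh replicate 1 and 13 and 18 without Veh replicate 2. With all 6 iWAT libraries in the fit they were 10 and 12. Sdhb, of complex II, was at 73.8 and 125 against 34.1 and 25.01 CPM in progenitor-like cells (1.76 ± 0.29, adjusted p = 0.0034). Cox5b, of complex IV, was at 219 and 301 against 69.5 and 79.2 CPM in preadipocyte-like cells. None of the 13 genes that mitochondria encode, which serve the same chain but not its complex II, passed edgeR's test in either class, with medians of −0.44 and −0.53. This rested on Rosi replicate 1, without which 12 and 13 of them were lower. In NPVM-like and DC-like cells 12 of 13 were lower, beside 69 and 67 of 73 nuclear genes that were higher. Over all genes 13.9% and 11.3% were lower and 18.7% and 19.7% higher in these classes. The 12 became 4 in NPVM-like cells without Veh replicate 1 and 7 without Veh replicate 2, 4 in DC-like cells without Rosi replicate 2, and 0 in both with all 6 libraries, while the nuclear genes were at 59 to 67 in these fits.

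**Figure D4:**
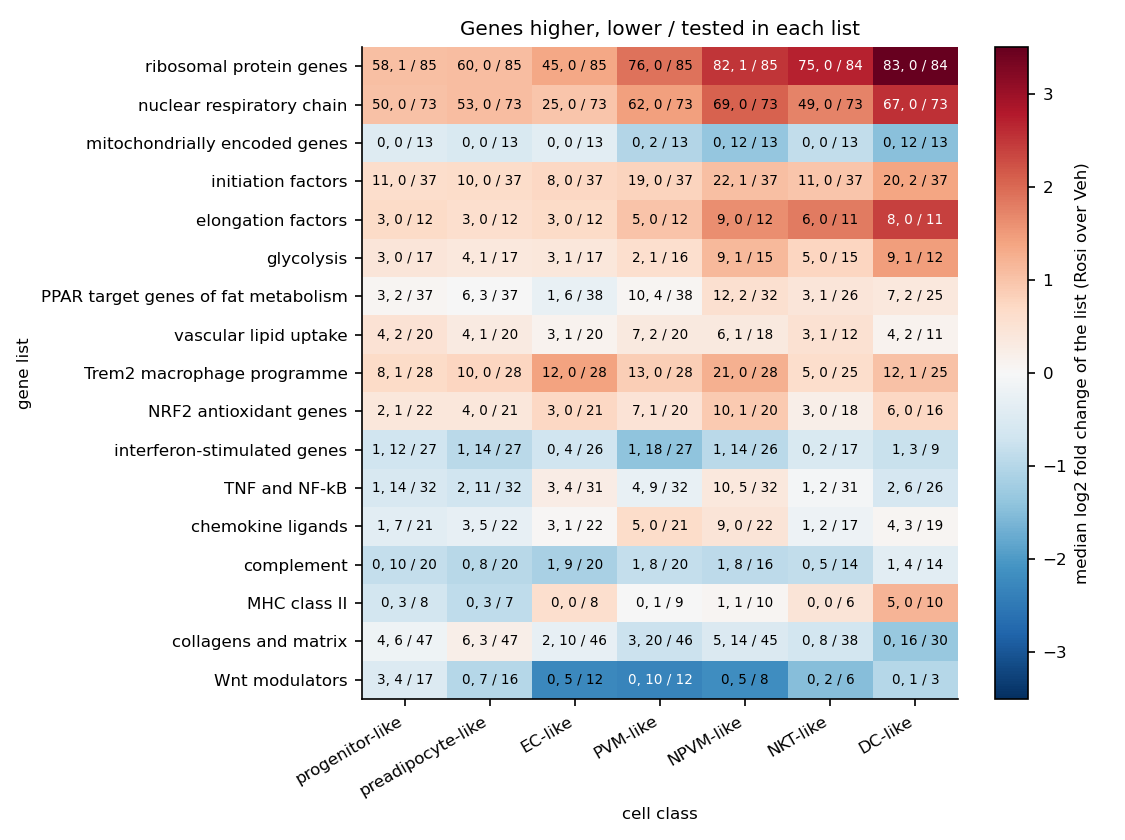
Median log2 fold change (colour, Rosi over Veh) of 17 gene lists (rows) in 7 cell classes (columns), with the number of genes higher, lower and tested printed in each cell. RP and nuclear respiratory chain genes are red in all 7 classes, with 58 of 85 and 50 of 73 higher in progenitor-like cells, and interferon-stimulated genes are blue in all 7, with 18 of 27 lower in PVM-like cells.

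Of 37 PPAR target genes of fat metabolism 3 were higher and 2 lower in progenitor-like cells, beside 8.66% and 5.39% of all genes. There were 7 higher and 4 lower without Rosi replicate 1, 6 and 5 without Rosi replicate 2, 5 and 2 without Veh replicate 2, and 1 each with all 6 libraries. Fabp5, a fatty acid carrier, was at 149 and 88.7 CPM in Rosi and at 5.64 and 7.58 CPM in Veh (log2 fold change 4.17 ± 0.33, adjusted p = 0.0001014). Pnpla2, the lipase that starts the breakdown of stored fat, was at 28.7 and 79.4 against 22.1 and 24.1 CPM. Pdk4, which blocks entry of pyruvate into the citrate cycle, was lower (8.41 and 16.6 against 49.7 and 39.2 CPM), and so was Angptl4, an inhibitor of lipoprotein lipase (61.5 and 98.3 against 199 and 140 CPM).

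In preadipocyte-like cells 6 of 37 were higher and 3 lower, beside 8.61% and 5.66% of all genes, with 3 higher without Veh replicate 1 and 11 without Rosi replicate 1. Fabp4, the fatty acid carrier of fat cells, was at 3374 and 3344 CPM in Rosi and 378 and 1086 CPM in Veh (2.20 ± 0.42, adjusted p = 0.0097). Cyp4b1, an oxidising enzyme, was at 109 and 96.5 against 5.34 and 15.7 CPM (3.23 ± 0.38, adjusted p = 0.0019). Fabp5 was at 161 and 134 against 13.2 and 18.6 CPM. Fabp4 and Fabp5 are abundant in EC-like cells, and the summed level of EC markers in preadipocyte-like cells was 141 and 110 CPM in Rosi against 21.7 and 55.0 CPM in Veh. Fabp5 is also a LAM marker, and the summed LAM markers in preadipocyte-like cells were 3007 and 2535 CPM in Rosi against 1581 and 1996 CPM in Veh. The part of endothelial or LAM RNA in these values was not tested.

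Pparg itself passed the test in the macrophage classes PVM-like and NPVM-like and not in the APC classes. It was at 56.8 and 32.6 CPM in NPVM-like cells of Rosi and 13.6 and 14.9 CPM in Veh (1.64 ± 0.39, adjusted p = 0.0025). In PVM-like cells it was at 11.2 and 9.01 against 3.08 and 4.28 CPM (adjusted p = 0.023). In preadipocyte-like cells the values were 32.5 and 32.2 against 6.17 and 21.0 CPM (adjusted p = 0.081), and in progenitor-like cells 7.48 and 4.11 against 2.59 and 4.55 CPM, where the groups overlapped. The difference of these effects between classes was tested for the APC pair only and did not pass (0.69 ± 0.39, adjusted p = 0.425). Cd36, a fatty acid receptor, overlapped between the groups in both APC classes.

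In progenitor-like cells 1762 of 12538 genes passed the test, or 14.1%, with 1086 higher and 676 lower. The numbers without Veh replicate 1, Veh replicate 2 and Rosi replicate 1 were 751, 827 and 3461. Besides Fabp5, the genes with the largest rise included Scgb1a1 (48.1 and 29.9 CPM in Rosi, 1.33 and 1.64 in Veh), a secretoglobin best known from the airway, and Il34, a ligand of the macrophage growth factor receptor CSF1R.

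Il34 was at 159 and 358 CPM in Rosi against 16.4 and 22.4 CPM in Veh (3.75 ± 0.38, adjusted p = 0.000173). Krtdap, which encodes a small protein known from keratinocytes, was at 772 and 802 against 41.3 and 83.2 CPM (3.67 ± 0.35). Ass1, the enzyme that makes argininosuccinate on the way to arginine, was at 37.6 and 87.0 against 3.76 and 5.30 CPM. For these 3 genes each Rosi library was above both Veh libraries, which the choice of the largest changes required. In this class the groups did not overlap for 7605 of all 12538 genes tested. Ackr4, a scavenger receptor for chemokines, the matrix protein gene Thbs1 and the glutathione transferase gene Gsta3 rose by 3.44, 3.81 and 3.37 on the log2 scale.

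Some endothelial genes were higher in this class too. Cldn5, of endothelial tight junctions, was at 19.4 and 26.6 against 0.314 and 2.27 CPM in progenitor-like cells and at 1672 and 3436 against 389 and 492 CPM in EC-like cells. The summed EC markers in progenitor-like cells were 137 and 150 CPM in Rosi against 14.7 and 59.0 CPM in Veh. Of these 12 markers 5 were higher, beside 8.66% of all genes. The share of endothelial RNA in these rises was not tested.

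Il1r2, the decoy receptor for interleukin-1, was among the named genes with the largest fall. It was at 96.5 and 53.8 CPM in Rosi and at 823 and 773 CPM in Veh (−3.42 ± 0.33, adjusted p = 0.0001106). Tmem26, a surface protein gene used as a marker of beige fat precursors, was at 1.64 and 2.25 against 30.6 and 37.8 CPM (−4.06 ± 0.34). Angpt1, the ligand of the endothelial receptor Tie2, was at 4.67 and 2.15 against 36.5 and 35.2 CPM. All values of Rosi lay below those of Veh, as the choice of these genes required, and by more than the spread within either group. Ppl, which encodes periplakin, Tdo2, which starts the breakdown of tryptophan, Ism1, a secreted protein gene, and Cldn10, a tight junction gene, fell by 3.52, 3.39, 3.15 and 3.03 on the log2 scale. Gm15564 fell as well but differed within each group (8.41 and 0.196 against 115 and 13.8 CPM).

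Cd209f and Cd209g, lectins of PVMs, were also in this list. In progenitor-like cells 14 of 23 perivascular macrophage genes were lower, beside 5.39% of all genes. The summed PVM markers were 322 and 335 CPM in Rosi against 681 and 748 CPM in Veh. The summed shared macrophage markers were 986 and 1010 CPM in Rosi against 960 and 933 CPM in Veh, with 2 of 11 higher and 1 lower. Cd209g was lower in PVM-like cells as well. The part of PVM RNA in these and other falls was not tested.

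Some inflammatory genes were lower in progenitor-like cells, where 5.39% of all genes were lower and 8.66% higher. One cluster of this class, led by Ptgs2, Tnfaip6, Ugdh and Has1, held 1033 and 739 Veh cells but 32 and 0 Rosi cells. Its median was 8658 UMIs, against 1934 in a cluster with 1704 and 1769 Veh cells. The part of this cluster in the lower inflammatory genes was not tested. Of 32 TNF and NF-κB genes, 14 were lower and 1 higher, with a median log2 fold change of −0.56. Cxcl10, an interferon-induced chemokine, was at 35.3 and 33.5 against 178 and 117 CPM (−2.11 ± 0.27, adjusted p = 0.00074). Il6 was at 79.2 and 19.5 against 187 and 199 CPM, and Lif, a cytokine of the same family, at 5.14 and 7.34 against 23.8 and 17.7 CPM. The 1 gene that was higher was Ccl5, a chemokine of T cells, at 31.6 and 14.1 against 2.12 and 4.67 CPM. Ccl2, which draws monocytes, and Cxcl13, which draws B cells, were lower as well (185 and 148 against 441 and 468 CPM, and 83.7 and 109 against 378 and 448 CPM).

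Of 20 complement genes 10 were lower and none higher (median −0.83), beside 5.39% and 8.66% of all genes. C4b was at 280 and 163 CPM in Rosi against 1303 and 926 CPM in Veh (−2.34 ± 0.32, adjusted p = 0.0011). C7, of the membrane attack complex, was at 30.1 and 4.31 against 122 and 136 CPM. C2 was at 15.2 and 7.05 against 87.8 and 74.3 CPM. Of 27 interferon-stimulated genes 12 were lower and 1 higher, beside the same shares of all genes. With all 6 libraries the TNF and NF-κB, complement and interferon lists had 5, 5 and 4 genes lower and 1, 0 and 0 higher. Without Veh replicate 1 these 3 lists had 6 genes each called lower in this class. Without Veh replicate 2 the TNF and NF-κB list had 9 and the interferon list 6, and without Rosi replicate 2 the interferon list had 8. Genes that tissue dissociation induces were lower for 7 of 34 and higher for 2, with Zfp36 at 634 and 318 against 2455 and 1902 CPM. Without Veh replicate 1 there were 4 lower and 1 higher, without Rosi replicate 2 there were 4 higher, and without Veh replicate 2 none was higher.

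Among matrix genes of progenitor-like cells 4 of 47 were higher and 6 lower, beside 8.66% and 5.39% of all genes. Without Rosi replicate 1, 13 were lower, without Rosi replicate 2 9 were higher, and with all 6 libraries 3 were higher and 3 lower. Single members were far apart between the groups. Mfap5, of elastic microfibrils, was at 6825 and 6640 against 1370 and 1715 CPM (2.13 ± 0.29, adjusted p = 0.0011). Col6a3, a chain of the microfilament collagen VI, was at 175 and 137 against 904 and 696 CPM (−2.36 ± 0.28), and Mmp3, a matrix protease, at 69.4 and 51.0 against 439 and 331 CPM. Pdgfra, the receptor that defines APCs, was at 393 and 358 against 695 and 797 CPM (adjusted p = 0.023). Dpp4, of progenitors, overlapped between the groups (935 and 569 against 688 and 835 CPM). Mfap5, Pdgfra and Dpp4 are among the markers that named the APC-like and progenitor-like cells, so their values here are not independent of the naming.

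In preadipocyte-like cells 1728 of 12113 genes passed the test, or 14.3%, with 1043 higher and 685 lower. The count rested on the Veh libraries, with 180 genes without Veh replicate 1, 742 without Veh replicate 2 and 3164 without Rosi replicate 1. One cluster of this class, led by Gdf10, held 400 of 560 and 886 of 1109 Veh cells but 18 of 1747 and 11 of 3450 Rosi cells. A change within the class and a change of its makeup cannot be told apart. Saa3, a serum amyloid A gene of the acute phase, was at 52.6 and 214 CPM in Rosi and at 1.23 and 0 CPM in Veh. Only 3 UMIs stood in Veh, and the ratio of the pooled levels was 295 with a counting interval of 101 to 1431. Hp, which encodes the acute phase protein haptoglobin, was at 36.7 and 20.5 against 2.06 and 1.48 CPM (4.02 ± 0.48, adjusted p = 0.0019).

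Ndufa4l2, a hypoxia-induced gene related to a respiratory chain subunit, was at 146 and 252 CPM in Rosi against 1.64 and 6.20 CPM in Veh (5.57 ± 0.47, adjusted p = 0.00063). Thbs1 was at 276 and 87.3 against 14.8 and 23.0 CPM, and Gsta3 at 20.1 and 25.1 against 1.64 and 2.07 CPM. Postn, which encodes the matrix protein periostin, was at 1045 and 589 against 287 and 189 CPM (1.78 ± 0.33, adjusted p = 0.0084). These genes separated the groups without overlap, as did 7372 of all 12113 genes tested in this class. Genes of largest change were named only if they did so.

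Tdo2 was among the named genes with the largest fall. It was at 3.00 and 0.657 CPM in Rosi against 78.9 and 55.5 CPM in Veh (−5.32 ± 0.51, adjusted p = 0.00092). Nt5e, the CD73 enzyme that makes adenosine and a common marker of stromal cells, was at 2.40 and 0.469 against 29.6 and 25.4 CPM. Fgf9, a growth factor, was at 1.199 and 1.032 against 20.1 and 21.9 CPM (−4.23 ± 0.40). The fall of Fgf9 was larger than in progenitor-like cells, by 2.94 ± 0.60 on the log2 scale (adjusted p = 0.014).

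Secreted inhibitors and ligands of Wnt signalling, which holds back fat cell formation, were lower for 7 of 16 and higher for none, beside 5.66% of all genes that were lower (11 without Rosi replicate 1). Sfrp2 was at 148 and 104 against 1272 and 555 CPM (−2.86 ± 0.39, adjusted p = 0.003), and Sfrp4 at 51.6 and 67.9 against 275 and 251 CPM. Dkk2 was at 19.6 and 13.5 against 75.6 and 119 CPM, and the ligand Wnt10b at 2.70 and 3.47 against 14.8 and 13.9 CPM. In progenitor-like cells 3 of 17 were higher and 4 lower (7 without Rosi replicate 1), beside 8.66% and 5.39% of all genes, with Dkk2 lower and Dkk3 and the Wnt agonist Rspo3 higher (33.4 and 59.4 against 4.94 and 14.8 CPM for Rspo3). Wnt10b overlapped between the groups there, at 106 and 41.1 against 73.6 and 101.5 CPM. In preadipocyte-like cells the progenitor markers were lower for 7 of 13 as well, and the part of progenitor RNA in the lower Wnt genes was not tested. At a finer clustering, a preadipocyte-like cluster led by Gdf10, Sfrp2, Gas6 and C7 held 243 and 246 Veh cells but 5 and 2 Rosi cells. Its part in the lower Sfrp2 and C7 was not tested.

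TNF and NF-κB genes were lower for 11 of 32 in preadipocyte-like cells, complement genes for 8 of 20 and interferon-stimulated genes for 14 of 27, beside 5.66% of all genes. Il6 was at 12.0 and 4.22 against 73.6 and 47.3 CPM (−2.93 ± 0.44, adjusted p = 0.0043). Ptgs2, the inducible prostaglandin synthase, was at 17.8 and 52.8 against 214 and 144 CPM. C7 was at 63.1 and 17.0 against 402 and 264 CPM. Without Veh replicate 1 these lists had 1, 3 and 3 genes called lower. Without Rosi replicate 2 the TNF and NF-κB list had 7 and the interferon list 9, without Veh replicate 2 the interferon list had 6, and without Rosi replicate 1 the complement list had 16. PVM markers were lower for 10 of 12 in this class, with sums of 400 and 403 CPM against 1511 and 1213 CPM. The part of PVM RNA in these falls was not tested. MHC class II genes were lower for 3 of 7 (1 without Veh replicate 1, 2 without Veh replicate 2, 0 with all 6 libraries).

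Insulin signalling genes were mostly below the test in preadipocyte-like cells, with 1 of 22 higher and 4 lower, beside 8.61% and 5.66% of all genes. None was called by edgeR without Veh replicate 1, 2 were lower and 2 higher without Veh replicate 2, and 3 were higher without Rosi replicate 1. Igf1 was at 158 and 76.2 against 744 and 242 CPM and Irs1, the insulin receptor substrate, at 31.6 and 22.4 against 67.0 and 65.3 CPM. Igfbp7 was at 1689 and 1905 against 563 and 603 CPM (1.62 ± 0.25, adjusted p = 0.0047). On the list of transcription factors that act in fat cell formation, 2 of 23 were lower, Ebf2 and Nr2f2, and none was higher. Over all genes 5.66% were lower and 8.61% higher. Ebf2 was at 142 and 145 against 254 and 264 CPM. The list had a median log2 fold change of 0.099, and with all 6 libraries edgeR called none of it.

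**Figure D5:**
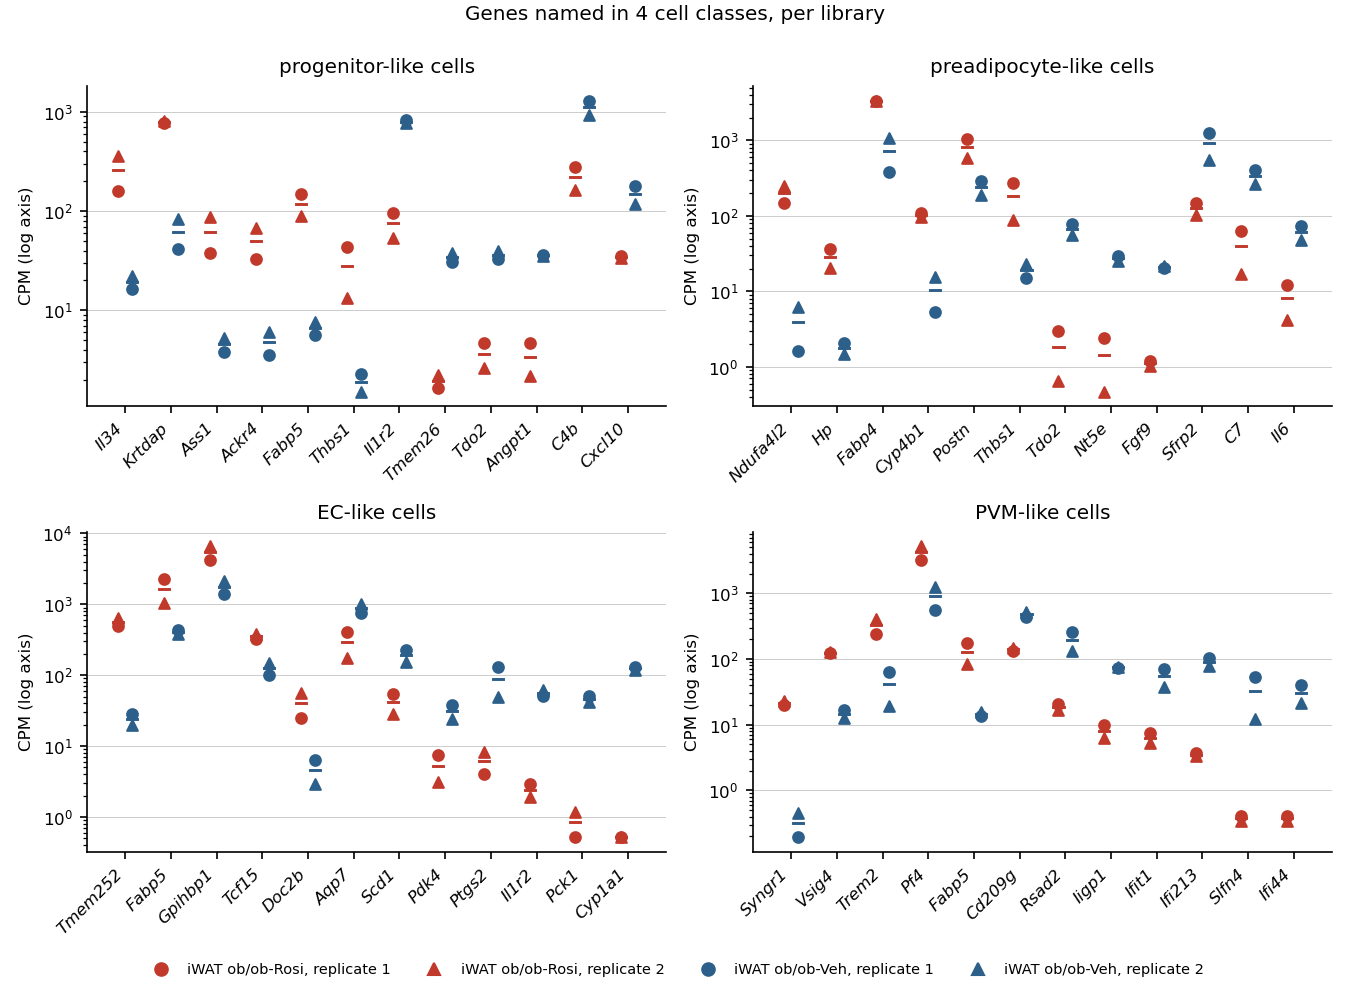
CPM per library (y axis, log scale) of 12 genes in each of 4 cell classes, 1 point per library and a bar at the mean of each group. In preadipocyte-like cells Tdo2 stands at 3.00 and 0.657 CPM in Rosi and 78.9 and 55.5 CPM in Veh, and in EC-like cells Cyp1a1 at 0.522 and 0.516 against 130 and 120 CPM.

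The effect of Rosi differed between preadipocyte-like and progenitor-like cells of the same mice for 667 of 13106 genes, or 5.09%, in a fit with the library as a block. In 302 genes the effect was higher in preadipocyte-like cells and in 365 it was lower. Of the 27 genes that had set the 2 classes apart, 16 were among them, which is no test since the classes rest on them. Col12a1, Penk, Col6a3 and Mmp3 are given here after their values had been seen. Postn rose in preadipocyte-like cells, as above, and did not pass in progenitor-like cells, where the values were 278 and 243 against 507 and 363 CPM. The difference of the effects was 2.43 ± 0.21 (adjusted p = 9.195e-05).

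Col12a1, a fibril-associated collagen, rose in progenitor-like cells (481 and 264 against 66.7 and 55.3 CPM) and fell in preadipocyte-like cells (23.8 and 29.1 against 59.2 and 49.9 CPM), with a difference of −3.60 ± 0.29. Penk, which encodes a precursor of opioid peptides, was at 187 and 170 against 84.9 and 89.3 CPM in progenitor-like cells and at 69.4 and 62.4 against 219 and 174 CPM in preadipocyte-like cells (difference −2.65 ± 0.17). Both genes passed the test in opposite directions in the 2 classes. Col6a3 and Mmp3 fell in progenitor-like cells and overlapped between groups in preadipocyte-like cells, with differences of 2.304 and 2.724. Markers of each class were at a higher summed level in the other class in Veh than in Rosi (690 and 621 against 1033 and 1260 CPM for preadipocyte markers in progenitor-like cells), and the part of this in the differences was not tested. With each cell assigned singly 319 genes differed, without Veh replicate 1 380 and without Rosi replicate 1 1010.

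In EC-like cells 827 of 11960 genes passed the test, or 6.91%, with 523 higher and 304 lower. One EC-like cluster, led by Rbp7, Mgll and Gpihbp1, held 29 of 111 and 217 of 639 Veh cells but 3 of 2114 and 9 of 2196 Rosi cells, so a change within the class and a change of its makeup cannot be told apart. Without Veh replicate 1, which held 111 of these cells, 337 passed, without Veh replicate 2 549 and without Rosi replicate 1 2113. Cyp1a1, an oxidising enzyme of foreign compounds that the aryl hydrocarbon receptor induces, was the gene of at least 20 CPM in Veh with the largest fall. It was at 0.522 and 0.516 CPM in Rosi against 130 and 120 CPM in Veh (−7.83 ± 0.40, adjusted p = 3.503e-07). The replicates of each group were close together and the groups far apart.

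Genes of lipid supply to the tissue were among those that rose. Gpihbp1, which carries lipoprotein lipase to the capillary wall, was at 4240 and 6564 against 1418 and 2106 CPM (1.61 ± 0.43, adjusted p = 0.040). Fabp5 was at 2255 and 1038 against 430 and 384 CPM, and Tcf15, a transcription factor of capillaries that take up fatty acids, at 328 and 376 against 101 and 148 CPM. In that list of 20 genes 3 were higher and 1, Aqp7, was lower, beside 4.37% and 2.54% of all genes, with 1 higher without Veh replicate 1, 2 without Rosi replicate 2 and 5 without Rosi replicate 1. With all 6 libraries edgeR called none of the 20. Aqp7, the glycerol channel, was at 405 and 175 against 753 and 1020 CPM. Tmem252 was at 501 and 641 against 28.5 and 19.7 CPM (4.69 ± 0.37). Pgf, a growth factor of the VEGF family, was at 22.1 and 105 against 0 and 2.90 CPM and Doc2b, a sensor of vesicle release, at 24.6 and 57.0 against 6.33 and 2.90 CPM.

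Of 38 PPAR targets 6 were lower and 1 higher in EC-like cells, beside 2.54% and 4.37% of all genes, and 31 were not called. With all 6 libraries 1 was lower and none higher. Their median log2 fold change was −0.25, and between −0.29 and −0.09 over the fits that left out a library. Pck1, the enzyme of glycerol formation, was at 0.522 and 1.16 against 50.6 and 41.7 CPM (−5.74 ± 0.51). Scd1, which makes unsaturated fatty acids, was at 54.7 and 28.8 against 228 and 153 CPM, and Plin4, a lipid droplet protein gene, at 5.22 and 6.97 against 34.8 and 23.7 CPM. RNA of mature adipocytes was also lower here for 5 of 14 genes, with Cfd (adipsin) at 15.3 and 15.9 against 117 and 133 CPM, and the summed list was 700 and 797 CPM against 1382 and 1229 CPM. The part of adipocyte RNA in the falls of Pck1, Scd1 and Plin4 was not tested. Progenitor markers were at 505 and 637 CPM in EC-like cells of Rosi against 1831 and 1673 CPM in Veh, beside falls of the APC genes Il1r2 and Sfrp2.

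In PVM-like cells 2454 of 11812 genes passed the test, or 20.8%, with 1465 higher and 989 lower. The count was 879 without Veh replicate 1 and 1315 without Rosi replicate 2. Of the interferon-stimulated genes 18 of 27 were lower and 1 was higher, with a median log2 fold change of −1.41, beside 8.37% of all genes that were lower. Leaving out a library left 13 to 21 lower. Rsad2, the antiviral enzyme viperin, was at 20.8 and 16.7 CPM in Rosi against 253 and 132 CPM in Veh (−3.37 ± 0.35, adjusted p = 0.001). Ifit1, which binds foreign RNA caps, was at 7.35 and 5.27 against 71.0 and 38.0 CPM, and Iigp1, a GTPase against intracellular microbes, at 9.80 and 6.21 against 73.3 and 76.3 CPM.

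Ifi213, Ifi44 and Slfn4, which interferon also induces, were among the genes with the largest fall. Ifi213 was at 3.67 and 3.32 against 102 and 77.9 CPM (−4.69 ± 0.31, adjusted p = 0.0001554). Ifi44 was at 0.408 and 0.340 against 39.8 and 21.2 CPM. Slfn4 was at 0.408 and 0.340 against 53.1 and 12.2 CPM. In these 3 genes the Veh libraries were the high ones, with replicate 1 above replicate 2.

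Interferon acts through an element in promoters, the interferon-stimulated response element (ISRE), whose core was searched as GAAA, any 2 bases and GAAA again, and on the other strand as TTTC, any 2 bases and TTTC. In RefSeq promoter windows from 250 bases before to 50 after the gene start (GRCm38.p6), 943 of 27025 (3.49%) held it. Of the 20 listed interferon-stimulated genes with a RefSeq promoter, 12 did (60.0%). Of the 12 that were lower in PVM-like cells and had a promoter 5 did (41.7%), a smaller share than over the list. The 5 include Ifit3 and its copy Ifit3b, with the same sequence around the motif. The share was 6.71% of 715 other genes that were lower in this class and had a promoter and 3.28% of all those tested. The list was made of interferon-stimulated genes, so a higher share than in other genes was set in advance and is no test. A match is a description of the letters and says nothing of binding. The windows below are shown, in the direction of the gene and with the motif in capitals, because the interferon genes moved together in these macrophages.
Ifit1, chr19:34640776-34640803 (+ strand): aggcttcagTTTCACTTTCcagtctcag
Ifit3, chr19:34583364-34583391 (+ strand): agtggtaagTTTCACTTTCctcttctgg
Rsad2, chr12:26456554-26456581 (− strand): tggtccaacTTTCATTTTCagaaaacag
Stat2, chr10:128270267-128270294 (+ strand): gcaccctggTTTCAGTTTCctttcccta

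Ifit3 and Stat2 were chosen for this after their values had been seen. Ifit3 was at 5.44 and 12.5 CPM in Rosi against 31.7 and 34.9 CPM in Veh (−1.86 ± 0.37, adjusted p = 0.0082), and its near-identical copy Ifit3b has the same sequence at its own site, so counts of the pair are uncertain. Stat2, a part of the factor that binds the element, was at 37.2 and 38.3 against 125 and 101 CPM (−1.58 ± 0.25).

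Vsig4, a complement receptor of resident macrophages, rose in PVM-like cells from 16.7 and 12.6 CPM in Veh to 122 and 129 CPM in Rosi (3.09 ± 0.28, adjusted p = 0.00062). Pf4, a chemokine gene, was at 3189 and 5185 against 560 and 1247 CPM, while the lectin gene Cd209g was at 131 and 148 against 441 and 528 CPM. Vsig4 and Pf4 are among the 12 markers that named this class, so their values within it are not independent of the naming. The list of PVM genes had 2 of 23 higher and 2 lower, beside 12.4% and 8.37% of all genes. Syngr1, a vesicle protein gene, stood at 20.1 and 23.3 CPM in Rosi with 422 UMIs against 3 UMIs in Veh, a ratio of 71.0 with a counting interval of 24.1 to 346.

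Genes of the Trem2 programme, which marks lipid handling in macrophages, were higher for 13 of 28 in PVM-like cells with none lower, beside 12.4% of all genes, and for 8 without Veh replicate 1. Trem2, the lipid receptor, was at 243 and 409 against 63.9 and 19.1 CPM (2.97 ± 0.50, adjusted p = 0.0045), and Lgals3, which encodes galectin-3, at 993 and 1416 against 190 and 138 CPM. The same list had 8 to 21 higher in the other classes except NKT-like cells (5 of 25), where 4.37% to 19.7% of all genes were higher. It had 12 of 28 in EC-like cells, and in NPVM-like cells 21, or 12 without Veh replicate 1. Trem2 was at 79.8 and 103 against 3.17 and 9.26 CPM in EC-like and at 42.8 and 29.4 against 4.47 and 2.27 CPM in progenitor-like cells. LAM-like cells were 11.84% and 6.09% of the Rosi libraries and 0.528% and 0.222% of the Veh libraries, and the part of their RNA in the Trem2 values of other classes was not tested. Likewise APC markers in PVM-like cells were at 2695 and 2973 CPM in Rosi against 7501 and 7090 CPM in Veh. Of 46 matrix genes 20 were lower and 3 higher there, beside 8.37% and 12.4% of all genes.

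PPAR targets were higher for 10 of 38 and lower for 4 in PVM-like cells, beside 12.4% and 8.37% of all genes. The number higher was 4 without Veh replicate 1 and 6 without Rosi replicate 2. Fabp5 was at 173 and 84.8 against 13.7 and 15.5 CPM (3.14 ± 0.37, adjusted p = 0.0013). Ftl1, a light chain of the iron store ferritin, was at 8192 and 14780 against 2633 and 2709 CPM. Gapdh, of glycolysis, was at 283 and 553 against 58.5 and 83.3 CPM (2.56 ± 0.37). The last 2 were higher in every class tested.

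In NPVM-like cells 3263 of 9993 genes passed the test, or 32.7%, with 1870 higher and 1393 lower (2131 without Veh replicate 1). The groups drew on different clusters here. One held 316 and 194 Rosi cells against 50 and 12 Veh cells. At a finer clustering another held 44 and 5 Rosi against 586 and 378 Veh cells. A cluster led by Lyz1 and Ear2 held 298 and 722 Rosi against 20 and 18 Veh cells there. It scored best as LAM and was left unnamed. With that clustering 38 of the calls changed sign. A change within the class and a change of its makeup cannot be told apart. Pglyrp1, which binds bacterial cell walls, was at 84.5 and 51.9 against 3.022 and 2.298 CPM (4.61 ± 0.48, adjusted p = 1.573e-06). Treml4, a receptor of blood-derived macrophages, was at 85.2 and 32.6 CPM against 3 UMIs in both Veh libraries together, a ratio of 40.5 with a counting interval of 13.7 to 197. Arg1, arginase of alternatively activated macrophages, was at 12.5 and 28.5 CPM against 1 UMI in Veh. Lsmem1 was at 57.6 and 20.5 against 614 and 701 CPM (−4.09 ± 0.39), and was among the named genes with the largest fall.

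Inflammatory genes were divided in NPVM-like cells. Of the TNF and NF-κB list 10 of 32 were higher and 5 lower beside backgrounds of 18.7% and 13.9%, and of the chemokine ligands 9 of 22 were higher. Il1b, a central inflammatory cytokine, was at 1712 and 1496 against 323 and 304 CPM (2.35 ± 0.31, adjusted p = 6.777e-06), and Cxcl2, which draws neutrophils, at 4502 and 3841 against 1064 and 1202 CPM. Interferon-stimulated genes were lower for 14 of 26, with Oasl2 at 7.20 and 5.76 against 67.2 and 57.4 CPM. That list gave 7 lower without Veh replicate 1. PPAR targets were higher for 12 of 32 and lower for 2, where 18.7% and 13.9% of all genes were, with Fabp5 at 270 and 226 against 15.1 and 19.5 CPM (3.86 ± 0.33).

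In NKT-like cells 752 of 7126 genes passed the test, or 10.6%, with 560 higher and 192 lower (2.69%), and 74 passed without Veh replicate 2. The makeup of this class differed between the libraries. A cluster led by Satb1 held 132 and 62 Rosi cells and 49 and 144 Veh cells, and one led by Ccl5 held 276 and 642 against 78 and 64. Another, led by Areg, held 68 and 313 against 15 and 22. Of 20 NKT markers 6 were higher (summed level 7453 and 7393 against 2796 and 4199 CPM), and 6 of 12 APC markers were lower (6143 and 6870 against 13870 and 14560 CPM). The part of either in the values that follow was not tested. Ccl5, the chemokine of activated T and natural killer cells, was at 5906 and 7640 CPM in Rosi against 208 and 422 CPM in Veh (4.41 ± 0.65, adjusted p = 0.0054). Ucp2, a mitochondrial carrier, was at 438 and 810 against 247 and 122 CPM. Ccl5 was also higher in the other 6 classes, at 45.4 and 29.4 against 6.33 and 9.84 CPM in EC-like cells. Nudt19, Fam184a and Hscb had no UMI in either Veh library, and 3 UMIs in Veh would give them at least 6.17-fold, 6.11-fold and 5.35-fold higher levels in Rosi.

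In DC-like cells, with 142 and 206 cells in Rosi and 74 and 59 in Veh, 1874 of 6048 genes passed the test, or 31%, with 1193 higher and 681 lower (11.3%). DESeq2 called 867, and without Rosi replicate 2 and Veh replicate 1 edgeR called 903 and 1129. MHC class II genes, by which these cells present antigen, were higher for 5 of 10 and lower for none, beside 19.7% of all genes that were higher. The count was 3 without Veh replicate 1 and 1 with all 6 libraries. In the same class LAM markers were higher for 6 of 9 tested (sums of 3678 and 3926 against 876 and 849 CPM), shared macrophage markers for 5 of 10, and the markers of DC-like cells themselves were lower for 4 of 13 (2023 and 1708 against 3010 and 3522 CPM). The part of macrophage RNA was not tested. H2-DMa, which loads peptides, was at 1335 and 1572 against 272 and 410 CPM (2.10 ± 0.37, adjusted p = 6.588e-05) and Cd74, the invariant chain, at 22450 and 38430 against 6626 and 11820 CPM. Ccl17, a chemokine of mature dendritic cells, was at 41.8 and 255 CPM in Rosi with no UMI in Veh. The floor of 3 UMIs over the Veh group makes this at least 13.3-fold higher in Rosi, and Serpina3g at least 14.5-fold. Slc15a2, a peptide carrier gene, was at 38.4 and 2.85 against 193 and 340 CPM (−3.72 ± 0.55).

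Summed over the whole library, where changes in cell numbers and in RNA per cell cannot be told apart, 2732 of 15352 genes passed the test, or 17.8%, with 1571 higher (10.2%) and 1161 lower (7.56%). There were 1078 without Veh replicate 1 and without Rosi replicate 2 there were 1705. Trem2 was at 295 and 326 against 26.2 and 8.97 CPM and Cldn5 at 406 and 513 against 6.55 and 48.1 CPM, in the direction of the LAM-like and EC-like cells in these libraries. Of the list of cell cycle genes 14 of 31 were higher and none lower, with Birc5, of the mitotic spindle, at 18.6 and 18.4 against 4.20 and 3.04 CPM (2.35 ± 0.29, adjusted p = 0.0077). The cell cycle count was 9 without Rosi replicate 2 or Veh replicate 1 and 7 without Veh replicate 2. It was 5 with all 6 libraries, and 5 of 29 with cells thinned to 700 UMIs, where the median log2 fold change went from 1.105 to 0.629. Within the APC classes 1 of 21 and none of 16 were called. Fn1, which encodes fibronectin, was at 1207 and 1402 against 5996 and 4940 CPM (−2.07 ± 0.30), and Irs1 at 7.72 and 7.32 against 33.6 and 34.2 CPM.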

How the data were processed

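The authors deposited 10x gene by barcode UMI counts for each library, unnormalised, made with bcl2fastq 2.19.1.403 and Cell Ranger 3.0.2 on mm10; the study states that all samples were processed and sequenced in 1 batch. Counts were read with Python 3.11.15 and scanpy 1.11.5. Cells of the 6 iWAT libraries were clustered (Leiden, 2000 variable genes, 25 components, 20 neighbours, resolution 1) and named from markers, and APC-like cells were clustered again (resolution 0.6). Doublets were kept, since the automatic caller marked almost none in the Rosi libraries, and an alternative removed the top 6% of scores. Raw counts were summed per library and class and tested in edgeR 4.0.16 (quasi-likelihood, TMM and library sizes from genes other than the 87 RP genes, filterByExpr) with 2 residual degrees of freedom in each class. Classes with under 20 cells in a library were not tested gene by gene. The members and the 29 gene lists were chosen with earlier results of these data known. Named genes were the called genes of at least 20 CPM in the higher group, without overlap and with the largest change in each direction (10 in the whole library and the APC classes, 5 elsewhere), up to 4 called members per list, genes the study names, up to 10 RP genes and markers. Of the UMIs kept, depth was 19593940 to 66315901 per library. Counting intervals (95%) cover counting error only. Same-numbered libraries did not deviate together (correlation of deviations −0.19 to 0.14 over the classes), so replicate numbers were not used as pairs. Alternatives were DESeq2 1.42.0, other scalings and filters, all 6 iWAT libraries, a replicate block, each library left out, other clusterings, removal of doublets or shared barcodes, and thinning to 700 UMIs. The scripts were tested on simulated data. Transcript lengths are from GENCODE and promoters from RefSeq (GRCm38.p6).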

Additional observations from a re-analysis of the deposited data

Results flagged for a closer look

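The effect of Rosi was tested for a difference between preadipocyte-like and progenitor-like cells, and 667 genes differed. Among the genes named above, the effect (log2, preadipocyte-like minus progenitor-like) was higher in preadipocyte-like cells by 7.02 for Saa3, 2.72 for Mmp3, 2.43 for Postn, 2.33 for Ppl, 2.304 for Col6a3, 2.24 for Cldn10, 2.18 for Angpt1 and 2.10 for Cyp4b1. It was higher by 1.26 for Igfbp7, 1.12 for Zfp36, 1.05 for Il1r2, 0.99 for Pdk4, 0.95 for C2 and 0.76 for Angptl4. The difference was negative for Scgb1a1 (−4.18), Col12a1 (−3.60), Fgf9 (−2.94), Ackr4 (−2.60), Rspo3 (−2.44), Dkk3 (−2.40), Sfrp2 (−2.23), Tdo2 (−2.11), Wnt10b (−1.75), Ifit1 (−1.02), Fabp5 (−0.95) and Cd36 (−0.73). Penk, given above, had a negative difference as well. For Saa3 the Veh libraries held 3 UMIs in preadipocyte-like cells, so its size rests on the prior count of the fit.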

How the results depend on the processing

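The direction of the RP shares held under the alternatives run for them, with thinning giving 23.44 percentage points in DC-like cells. The RP gene calls did not hold alike. With all 6 iWAT libraries they were 2 in the whole library, 1 in progenitor-like, 2 in preadipocyte-like, 0 in EC-like and 0 in NKT-like cells by edgeR, and 65 in PVM-like, 81 in NPVM-like and 81 in DC-like cells. With all 6 iWAT libraries sharing 1 spread, the genes called were 404 in the whole library, 388 in progenitor-like, 215 in preadipocyte-like, 26 in EC-like, 1167 in PVM-like, 1884 in NPVM-like, 0 in NKT-like (1622 at an unadjusted p under 0.05) and 704 in DC-like cells. Thinned to 700 UMIs they were 1785 in the whole library, 794 in preadipocyte-like, 437 in EC-like, 1788 in NPVM-like, 448 in NKT-like and 535 in DC-like cells, and 261 for the difference between APC classes. Without a filter they were 4572, 2657 and 1598 in the whole library, preadipocyte-like and EC-like cells and 1151 for that difference, which was 415 at a minimum of 2-fold and 319 with cells assigned singly. DESeq2 called 867 in DC-like and 489 in NKT-like cells. The replicate block gave 2197 in EC-like and 2801 in preadipocyte-like cells, and crossed pairs gave 3879 in the whole library against 1985 with the block. The cause was not tested.

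Leaving out each library gave 1078 to 3130 genes in the whole library, 751 to 3461 in progenitor-like, 180 to 3164 in preadipocyte-like, 337 to 2113 in EC-like, 879 to 3359 in PVM-like, 2131 to 3519 in NPVM-like, 0 to 880 in NKT-like and 903 to 1425 in DC-like cells, and 380 to 1010 for the difference between APC classes. The lone library is then assumed to vary like the other group. Log2 differences in cells lost the call in EC-like (block 2.15, resolution 2 1.79, doublets removed 1.67, shared barcodes removed 1.73, range without a library 0.96 to 3.48), PLAM-like (block 2.04, resolution 2 1.98, doublets removed 1.78, range 1.43 to 2.69) and neutrophil-like cells (block 2.00, resolution 2 2.28, doublets removed 2.16, range 0.97 to 2.93). BC-like cells ranged from −0.23 to 1.24 and NPVM-like cells from −0.42 to 0.24, so both changed sign (BC-like −0.089 without Rosi replicate 1).

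Of 5253 values of named genes under 17 settings, 4776 kept direction and side of the threshold, 435 lost the call, 25 gained it and 17 changed sign. The threshold here was that of the adjusted p alone, so all 354 values at a minimum of 2-fold counted as kept by construction. Genes not tested under a setting were left out of the 5253. Sign changes were H2-DMa (−0.56) in NPVM-like cells at resolution 2, Dpp4 (0.19) in preadipocyte-like cells assigned singly, and Dpp4 (0.081) and Cd36 (−0.007) in thinned progenitor-like cells. Over the fits that left out a library, Thbs1 ranged from −0.54 to 2.23 in NPVM-like cells. In preadipocyte-like cells Aqp7 ranged from −0.91 to 2.76, Cd36 from −0.93 to 0.47 and Eif2a from −0.24 to 0.066. In progenitor-like cells Aqp7 ranged from −0.26 to 1.83, Cd36 from −0.20 to 1.104, Dpp4 from −0.39 to 0.30 and Eif2a from −0.008 to 0.41.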
